A study of Mus musculus with 16 samples.

Results

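*Mertk*, *Pros1* and *Timd4* encode a receptor, a bridging ligand and a phosphatidylserine receptor through which phagocytes recognize apoptotic cells. They were chosen by name for their shared role, as 3 of the 734 genes measured. Expression was read with the nCounter platform of NanoString, whose colour-coded probes count the mRNA molecules of a panel of innate immune genes of myeloid cells, in CD11b+ cells enriched from spleen by positive magnetic selection, with 1 sample from each of 16 wild type C57BL/6 (B6) mice. There were 4 groups of 4 mice. Naive mice were untreated. The mice of the second group received 20000000 BALB/c spleen cells and no drug (BALB/c cells only), an allogeneic stimulus described in the labels as depleted of T cells. The mice of the third group received the same cells and CTLA4-Ig (abatacept, a single i.p. dose of 150 μg on day 2), which binds CD80 and CD86 and so prevents costimulation through CD28. Mice of the last group received the same cells, the same CTLA4-Ig and recombinant EPO (epoetin alfa, 5000 U/kg i.p. daily), and spleens were taken on day 7. The study matched mice by age and sex but neither is given per mouse, and neither EPO without CTLA4-Ig nor EPO without spleen cells was analysed here. The route given for the cells is i.p. in the labels and i.v. in the study's text, which also calls the profiled cells CD11c-. In the labels, the letter codes for naive mice and for mice given BALB/c cells only are swapped between a protocol field and the individual samples. The groups used here follow the sample names and treatment fields, so every comparison with naive mice rests on those names.

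Dying cells expose phosphatidylserine on their outer surface, and macrophages take them up, a process called efferocytosis. Protein S, the product of *Pros1*, binds phosphatidylserine through one end and the receptor tyrosine kinase MERTK through the other, and so bridges the dying cell and the phagocyte. TIM-4, the product of *Timd4*, binds phosphatidylserine directly and tethers the dying cell, and in the spleen it is known from resident macrophages, which also clear aged red cells. MERTK signalling is further known for dampening inflammatory cytokine production in macrophages.

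All values are log2 expression as deposited, which the authors had normalized, and differences between groups are differences of mean log2 values. The molecule counts behind them could be recovered, with totals between 562760 and 912328 per mouse. The scale of the deposited values differed between naive mice and the others, since the factor applied to the counts was 1.27 to 1.85 in naive mice and 0.56 to 0.79 in the other 12. The median gene was accordingly higher in naive mice (7.26 ± 0.08, SD, n = 4) than with BALB/c cells only (6.53 ± 0.04), with CTLA4-Ig (6.54 ± 0.09) or with CTLA4-Ig/EPO (6.75 ± 0.06). Differences from naive mice are therefore given under other scalings too. Scaling by totals has a limit of its own, since the neutrophil genes *S100a8* and *S100a9* weighed unequally in the totals. Per 100000 recovered counts they held 14562 and 17930 in naive mice, but 1645 and 1843 with BALB/c cells only. With CTLA4-Ig they held 1495 and 1729, and with CTLA4-Ig/EPO 4574 and 5770. Levels of other genes per total are thus lowered most in naive mice. *Itgam*, which encodes CD11b, was present in every mouse, at 11.42 ± 0.15 in naive mice, 8.85 ± 0.28 with BALB/c cells only, 9.23 ± 0.12 with CTLA4-Ig and 9.56 ± 0.29 with CTLA4-Ig/EPO. The gene with the highest value was the neutrophil gene *S100a9* in each naive mouse and the antigen presentation gene *Cd74* in each mouse given BALB/c cells only. Transcripts of T and B cell markers were read in every sample as well, so the samples were mixtures. In such bulk samples, a change in the number of cells of a type and a change in RNA per cell cannot be told apart.

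The promoters of the 3 genes are printed because expression of all 3 was higher with CTLA4-Ig/EPO than with CTLA4-Ig alone. All 3 were in the RefSeq promoter table of the mouse build GRCm38.p6, each a window of 300 bases from 250 before to 50 after the start, on the + strand. *Mertk* lies at chr2:128698665-128698964, *Pros1* at chr16:62854057-62854356 and *Timd4* at chr11:46810549-46810848. Both strands were searched for the motif of STAT5, TTCNNNGAA, and for 3 short motifs. These were AGATAA, which GATA factors bind, the core motif of PU.1 in myeloid cells, GAGGAA, and the motif of single nuclear receptors, AGGTCA. Matches are in capitals and the strand is read 5′ to 3′.
Mertk: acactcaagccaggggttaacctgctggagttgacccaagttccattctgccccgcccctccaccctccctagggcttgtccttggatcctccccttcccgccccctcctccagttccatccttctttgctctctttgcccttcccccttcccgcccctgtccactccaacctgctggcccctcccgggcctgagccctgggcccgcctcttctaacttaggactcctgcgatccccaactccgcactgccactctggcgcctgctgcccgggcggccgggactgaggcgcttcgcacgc
Pros1: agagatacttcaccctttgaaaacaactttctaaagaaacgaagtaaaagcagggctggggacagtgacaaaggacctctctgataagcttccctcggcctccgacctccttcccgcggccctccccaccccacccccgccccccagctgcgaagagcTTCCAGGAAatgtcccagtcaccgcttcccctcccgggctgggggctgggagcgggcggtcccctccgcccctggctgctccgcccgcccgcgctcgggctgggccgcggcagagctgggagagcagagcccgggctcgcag
Timd4: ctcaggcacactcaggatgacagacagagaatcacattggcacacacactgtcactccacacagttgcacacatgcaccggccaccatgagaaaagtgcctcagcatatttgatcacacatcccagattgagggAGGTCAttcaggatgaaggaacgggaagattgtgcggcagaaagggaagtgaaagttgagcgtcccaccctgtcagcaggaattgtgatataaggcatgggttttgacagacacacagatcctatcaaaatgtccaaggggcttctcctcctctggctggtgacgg
The *Pros1* window held a match to the STAT5 motif, TTCCAGGAA, 92 bases before the start, and the *Timd4* window held AGGTCA 116 bases before it. In the *Mertk* window, none of the 4 motifs matched. Among all 27025 promoters of the table, 8.47% held the STAT5 motif, 11.4% the GATA motif, 28.3% the PU.1 motif and 16% the nuclear receptor motif. The *Mertk* and *Pros1* windows were rich in GC (66.0% and 66.7%, with 14 and 21 CpG), above the upper quartile of all promoters (61.7%), whereas the *Timd4* window had 50.7% GC and 5 CpG, near the median of all promoters (52.7% and 7 CpG). A match to these letters does not show that a factor binds.

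*Mertk*, the receptor, had deposited log2 values of 7.65, 7.48, 7.79 and 7.87 in the 4 naive mice and 7.34, 7.09, 7.26 and 7.39 in the mice given BALB/c cells only. With CTLA4-Ig the values were 7.02, 6.84, 7.27 and 6.96, and with CTLA4-Ig/EPO they were 8.94, 8.97, 9.58 and 9.26. The 4 mice with EPO stood well above the other 12, while the 8 mice given cells without EPO lay closely together and overlapped. *Mertk* rose with EPO by 2.17 on the log2 scale (SE 0.15), from 7.02 ± 0.18 with CTLA4-Ig to 9.19 ± 0.30, a 4.49-fold rise (95% CI 3.61 to 5.58, adjusted *P* value 2.36e-08). The recovered molecule counts went from 145 to 262 with CTLA4-Ig to 657 to 1368 with CTLA4-Ig/EPO. Ordered from the largest rise with EPO to the largest fall, it was 23rd of the 734 genes. Adding CTLA4-Ig to BALB/c spleen cells gave a *Mertk* difference of -0.25 (95% CI -0.56 to 0.07, adjusted *P* value 0.691), an interval that reaches from a clear fall to a small rise.

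Against naive mice, *Mertk* was higher with CTLA4-Ig/EPO by 1.49 (adjusted *P* value 4.31e-07), and by 2.01 after centring on medians, 2.20 after quantile normalization and 2.70 with counts scaled by totals. It was lower with BALB/c cells only by the deposited values (log2 difference -0.43, SE 0.15, adjusted *P* value 0.0185), but higher by 0.31 after each mouse was centred on its median, by 0.24 after quantile normalization and by 0.67 with counts scaled by totals. The adjusted *P* values of these 3 were 0.149, 0.216 and 0.00571. The call of a lower level by the deposited values also depended on single mice. It was lost without naive replicate 4 (-0.37, adjusted *P* value 0.0547) and without BALB/c spleen cells replicate 2 (-0.37, adjusted *P* value 0.0558). The difference itself stayed between -0.50 and -0.37 when a mouse was left out. Whether *Mertk* went down or up with BALB/c cells only thus depended on the scaling, whereas its level with EPO was above that of naive mice under each of the 4 scalings.

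**Figure D1:**
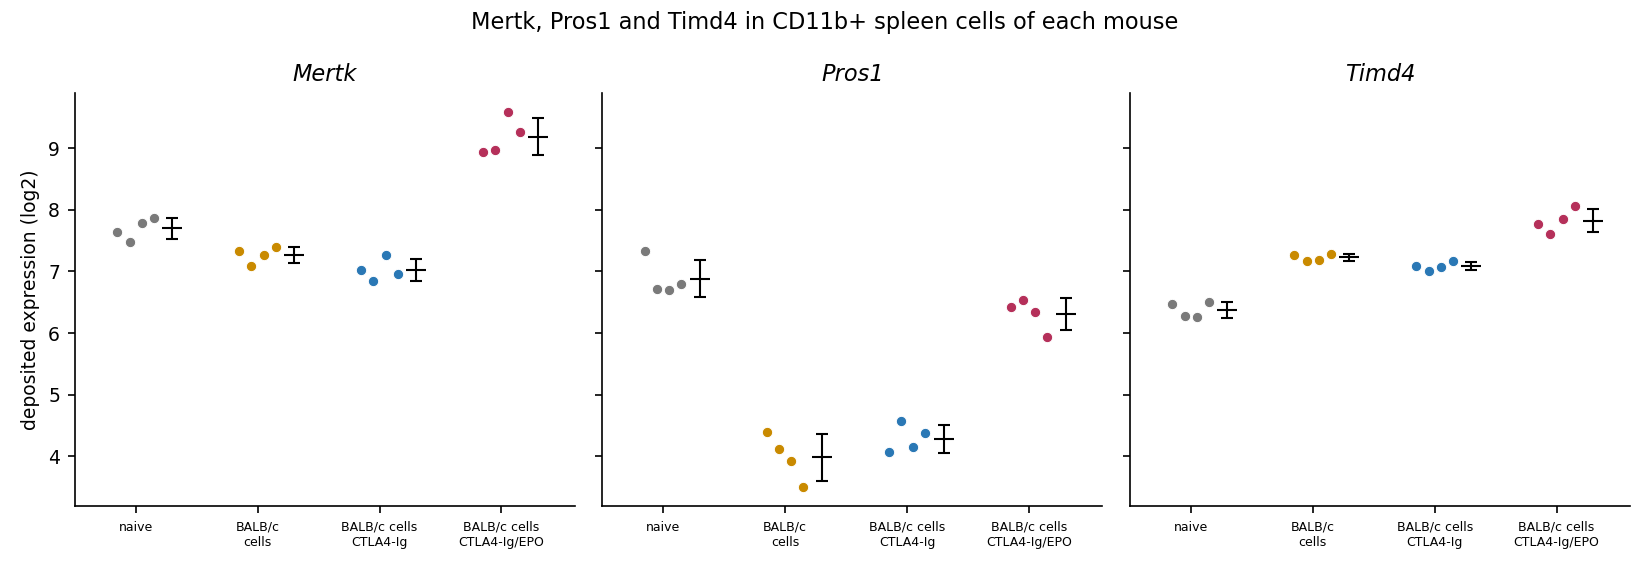
Deposited log2 expression of *Mertk*, *Pros1* and *Timd4* in CD11b+ spleen cells, 1 point per mouse by treatment group (4 mice each), with the mean and SD beside the points. All 3 genes are higher with CTLA4-Ig/EPO (means 9.19, 6.31 and 7.82) than with CTLA4-Ig (7.02, 4.29 and 7.08), with no overlap between the mice of these groups.

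*Pros1*, the bridging ligand, had log2 values of 7.33, 6.72, 6.69 and 6.79 in naive mice and 4.40, 4.13, 3.92 and 3.50 with BALB/c cells only. The values were 4.06, 4.57, 4.14 and 4.37 with CTLA4-Ig and 6.43, 6.54, 6.34 and 5.94 with CTLA4-Ig/EPO. Naive mice and mice with EPO were high, the 8 mice given cells without EPO were low, and no mouse lay between these levels. With BALB/c cells only, *Pros1* fell by 2.90 on the log2 scale (SE 0.20), from 6.88 ± 0.30 to 3.99 ± 0.38, and was 7.44-fold lower (adjusted *P* value 1.22e-08). This fall held under each scaling but was smaller under the others, down to -1.80 with counts scaled by totals, with counts per 100000 of 10.5 ± 0.50 in naive mice and 3.07 ± 0.77 after the cells. With CTLA4-Ig, the difference from BALB/c cells only was 0.30 (95% CI -0.14 to 0.74, adjusted *P* value 0.771).

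Adding EPO raised *Pros1* from 4.29 ± 0.23 to 6.31 ± 0.26, a log2 difference of 2.03 (SE 0.20) or 4.07-fold (95% CI 3.01 to 5.51, adjusted *P* value 1.17e-06), 30th of the 734 genes in that order. Behind these values were 24 to 31 recovered molecules per mouse with CTLA4-Ig and 96 to 145 with CTLA4-Ig/EPO, so the low level is counted less precisely than that of *Mertk*. Compared with naive mice, *Pros1* with CTLA4-Ig/EPO was lower by the deposited values (log2 difference -0.57, SE 0.20, adjusted *P* value 0.0209), near equal after centring on medians (-0.05) or quantile normalization (-0.15), and higher by 0.62 with counts scaled by totals (adjusted *P* value 0.00217). The lower level was no longer called without naive replicate 1 (-0.42, adjusted *P* value 0.0742) or without CTLA4-Ig/EPO replicate 4 (-0.45, adjusted *P* value 0.0747). Whether *Pros1* in mice with EPO was below or above the naive level was thus set by the scaling, with opposite calls by the deposited values and by totals.

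*Timd4*, the phosphatidylserine receptor, had log2 values of 6.48, 6.27, 6.26 and 6.50 in naive mice, and 7.27, 7.16, 7.18 and 7.29 with BALB/c cells only. The values with CTLA4-Ig were 7.09, 7.01, 7.06 and 7.17, and those with CTLA4-Ig/EPO were 7.78, 7.60, 7.84 and 8.06. Naive mice were lowest, the mice given cells without EPO were intermediate and tightly grouped, and the mice with EPO were highest. With BALB/c cells only, *Timd4* rose from 6.38 ± 0.13 to 7.23 ± 0.06 (log2 difference 0.85, SE 0.10, adjusted *P* value 2.86e-06), a direction that held under each scaling. The size did not, with 1.58 after centring on medians, 1.50 after quantile normalization and 1.94 with counts scaled by totals. The difference between CTLA4-Ig and BALB/c cells only was -0.14 (95% CI -0.36 to 0.07, adjusted *P* value 0.781), and the groups overlapped. With EPO, *Timd4* rose further to 7.82 ± 0.19, by 0.74 (SE 0.10) or 1.67-fold (95% CI 1.44 to 1.93, adjusted *P* value 2.13e-05). Recovered molecules ranged from 163 to 227 with CTLA4-Ig and from 255 to 416 with CTLA4-Ig/EPO, and the gene was 120th of 734 from the largest rise to the largest fall.

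By the deposited values, *Mertk* was ordered from CTLA4-Ig through BALB/c cells only and naive mice to CTLA4-Ig/EPO. A difference between the first 2 was not detected (adjusted *P* value 0.691), and naive mice came first after centring on medians or with counts scaled by totals. For *Pros1* the order was BALB/c cells only, CTLA4-Ig, CTLA4-Ig/EPO and naive. Between the first 2 no difference was detected (adjusted *P* value 0.771), and the last 2 changed places when counts were scaled by totals. *Timd4* was ordered naive, CTLA4-Ig, BALB/c cells only and CTLA4-Ig/EPO, and no difference between the middle 2 was detected (adjusted *P* value 0.781). The place of naive mice thus differed between the genes by the deposited values and moved with the scaling for *Mertk* and *Pros1*, whereas mice with EPO were above those with CTLA4-Ig alone in all 3 under each scaling.

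These calls stand against a background in which most genes moved. With BALB/c cells only, 3 of 3 genes differed from naive mice at an adjusted *P* value below 0.05, where 70.3% of all 734 genes did. In this step 1 of 3 was higher (11.9% of all genes) and 2 of 3 were lower (58.4%) by the deposited values, whereas centring on medians gave 1 higher and 1 lower, and counts scaled by totals gave 2 higher and 1 lower. The values did not overlap for 3 of 3 genes, compared with 61.2% of all. Adding CTLA4-Ig changed 0 of 3 in limma, as it did 0% of all genes, with 70 genes of the table and none of the 3 at an unadjusted *P* value below 0.05, and the values overlapped for 3 of 3 (7.36% of all genes did not overlap). Adding EPO changed 3 of 3 (51.1% of all genes), all of them higher (22.8% were higher and 28.3% lower) and without overlap (48.8%). With CTLA4-Ig/EPO against BALB/c cells only, 3 of 3 were higher, by 1.92 for *Mertk*, 2.33 for *Pros1* and 0.59 for *Timd4*, and 50.5% of all genes were called. Mice with CTLA4-Ig differed from naive mice in 3 of 3 (68.9% of all), by 0.71 for *Timd4* (1.80 with counts scaled by totals), by -2.60 for *Pros1* (-1.49) and, by the deposited values, by -0.68 for *Mertk*, which was 0.05 after centring on medians, -0.05 after quantile normalization and 0.44 with counts scaled by totals. Mice with CTLA4-Ig/EPO differed from naive mice in 3 of 3 as well (70.8%), with *Timd4* higher by 1.44, or 1.96 after centring on medians, 2.05 after quantile normalization and 2.64 with counts scaled by totals. These comparisons share groups of mice and are not independent of each other.

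The whole table moved with the scaling too. Of 734 genes, 87 were higher and 429 lower with BALB/c cells only by the deposited values, with a median difference of -0.65. The same step gave 242 higher and 196 lower after centring on medians, 251 and 192 after quantile normalization, and 339 and 137 with counts scaled by totals, whose median was 0.44. For the step from CTLA4-Ig to CTLA4-Ig/EPO, the deposited values gave 167 higher and 208 lower, centring on medians 126 and 276, quantile normalization 155 and 223, and counts scaled by totals 189 and 151. The median gene in this step was at -0.07 by the deposited values and at -0.28 after centring. *Mertk*, *Pros1* and *Timd4*, whose promoter windows are printed above, were higher with EPO under each of these scalings.

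With CTLA4-Ig/EPO against naive mice, 67 genes were higher and 453 lower by the deposited values, 168 and 249 after centring, 223 and 191 after quantile normalization, and 346 and 95 with counts scaled by totals. With CTLA4-Ig against naive mice the splits were 78 and 428, 244 and 205, 262 and 184, and 342 and 128 in the same order of scalings. With CTLA4-Ig/EPO against BALB/c cells only they were 168 and 203, 130 and 280, 158 and 233, and 188 and 153. Relative to the median gene of the same mouse, *Mertk* was at 0.43 in naive mice, 0.74 with BALB/c cells only, 0.48 with CTLA4-Ig and 2.44 with CTLA4-Ig/EPO on the log2 scale. *Pros1* was at -0.38, -2.54, -2.26 and -0.43 in the same order, and *Timd4* at -0.89, 0.70, 0.54 and 1.07. As counts per 100000 recovered molecules, *Mertk* was 19.0 ± 5.03, 29.2 ± 2.65, 24.8 ± 3.16 and 122 ± 32.3. The position of the mice with EPO relative to those with CTLA4-Ig was thus alike on all these scales, and that of the naive mice was not.

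**Figure D2:**
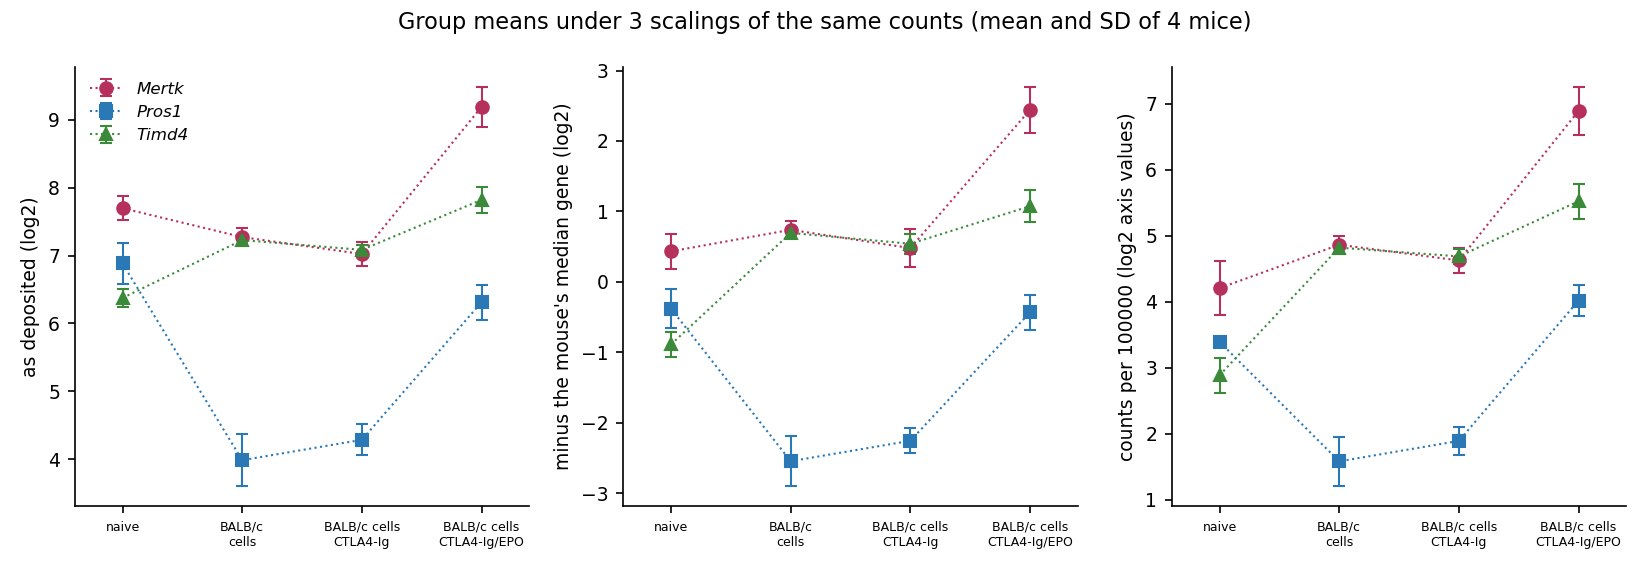
Group means with SD (4 mice each) of *Mertk*, *Pros1* and *Timd4* as deposited log2 values (left), as log2 values minus the median gene of the same mouse (middle) and as log2 of counts per 100000 recovered molecules (right). The rise with EPO appears in every panel, while *Mertk* in naive mice is above BALB/c cells only on the left (7.70 against 7.27) and below it in the middle (0.43 against 0.74) and on the right.

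The difference between the log2 values of a pair of these genes in the same mouse does not depend on the scale factor of that mouse, so it shows whether they changed by unequal amounts. Only its change between groups is read here, since probes for different genes need not count with equal efficiency. *Pros1* minus *Mertk* was -0.31, -0.76, -1.10 and -1.08 in naive mice and -2.94, -2.97, -3.34 and -3.89 with BALB/c cells only. With CTLA4-Ig it was -2.95, -2.27, -3.13 and -2.59, and with CTLA4-Ig/EPO it was -2.51, -2.43, -3.24 and -3.32. The ligand was thus lower relative to its receptor in all 4 mice given the cells than in any naive mouse, and the mice with EPO overlapped those without it. The change with BALB/c cells only was -2.47 (exact permutation test, *P* = 0.0286, the smallest that 4 against 4 mice allow, and 0.0514 after adjustment over the 9 tests of this kind). The change with EPO was -0.14 (exact permutation *P* = 0.6), from -2.73 ± 0.38 to -2.88 ± 0.47, so a difference between the rises of *Mertk* and *Pros1* was not detected.

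*Timd4* minus *Mertk* was -1.17, -1.21, -1.53 and -1.37 in naive mice and -0.07, 0.07, -0.08 and -0.10 with BALB/c cells only. It was 0.08, 0.17, -0.21 and 0.21 with CTLA4-Ig and -1.17, -1.37, -1.74 and -1.20 with CTLA4-Ig/EPO. Naive mice and mice with EPO were alike in this measure and stood apart from the other 8. The change was 1.28 after the cells and -1.43 with EPO (exact permutation *P* = 0.0286 for each, 0.0514 adjusted), without overlap between the groups. A larger rise of *Mertk* than of *Timd4* with EPO was thus seen in the values, but did not pass the threshold of 0.05 after adjustment.

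*Timd4* minus *Pros1* was -0.86, -0.44, -0.43 and -0.30 in naive mice and 2.87, 3.04, 3.26 and 3.79 with BALB/c cells only. With CTLA4-Ig it was 3.03, 2.44, 2.92 and 2.79, and with CTLA4-Ig/EPO it was 1.35, 1.06, 1.50 and 2.12. The mice with EPO lay between the naive mice and the other 8, with no overlap on either side. The change was 3.75 after the cells and -1.29 with EPO (exact permutation *P* = 0.0286 for each, 0.0514 adjusted). Adding CTLA4-Ig changed the 3 differences by 0.55, 0.11 and -0.44 (exact permutation *P* = 0.143, 0.343 and 0.114). In all, 5 of the 9 tests reached the smallest *P* value possible and none was below 0.05 after adjustment.

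**Figure D3:**
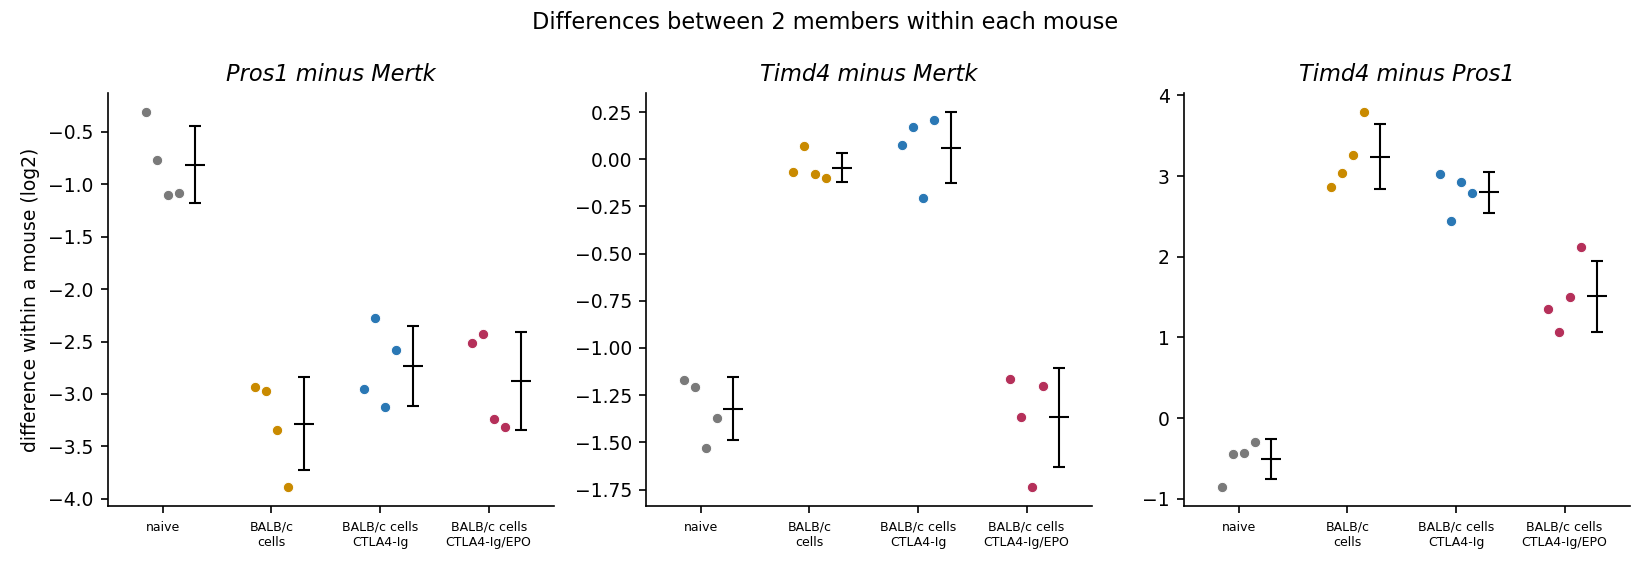
Difference between the log2 values of a pair of genes within each mouse, with 1 point per mouse by treatment group (4 mice each) and the mean and SD beside the points, for *Pros1* minus *Mertk*, *Timd4* minus *Mertk* and *Timd4* minus *Pros1*. With EPO, *Timd4* minus *Mertk* is at -1.37 ± 0.26, near that of naive mice (-1.32 ± 0.17), and *Pros1* minus *Mertk* is at -2.88 ± 0.47, overlapping CTLA4-Ig (-2.73 ± 0.38).

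The other genes of apoptotic cell clearance were taken from lists written from general knowledge, of which 48 of 105 genes were in the table, or 45 of 102 without *Mertk*, *Pros1* and *Timd4*. With EPO, 23 of these 45 were higher and 8 lower, with a median of 0.46, compared with 167 and 208 of all 734 genes and a median of -0.07. Over all 48, the split was 26 higher and 8 lower by the deposited values, 23 and 9 after centring, 26 and 7 after quantile normalization, and 29 and 5 with counts scaled by totals. All 734 genes split into 126 and 276 after centring, 155 and 223 after quantile normalization, and 189 and 151 with counts scaled by totals. With EPO, 22.8% of all genes were higher and 28.3% lower by the deposited values. Of 15 receptors in the table, *Mertk* and *Timd4* among them, 4 were higher and 3 lower (median 0.26). Besides *Mertk* and *Timd4*, those higher were *Mrc1*, the mannose receptor (log2 difference 1.65), and *Trem2*, a lipid-sensing receptor (1.50). The lower receptors were *Havcr2*, which encodes TIM-3 (-0.98), the integrin gene *Itgax* (-0.93) and *Havcr1*, which encodes TIM-1 (-0.92). TIM-1 and TIM-3 bind phosphatidylserine as TIM-4 does, so the 3 genes of the TIM family in the table did not move together, and they kept these directions under each scaling. *Havcr1* and *Trem2* were low genes, with 7 and 8 counts in their lowest mouse. The scavenger receptor genes *Cd36* (0.03) and *Marco* (0.02) were not called, and centring on medians turned their sign. Nor were *Olr1*, *Itgam* and *Itgb2* called by the deposited values, but counts scaled by totals called them higher (0.75, 0.43 and 0.36). Their adjusted *P* values by totals were 0.029, 0.0193 and 0.0381. *Itgam* was called after quantile normalization too (0.40, adjusted *P* value 0.0178).

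The bridging ligands and opsonins, mostly soluble molecules that coat dying cells, had the most one-sided split with EPO among the 5 clearance lists. Of 12, *Pros1* among them, 11 were higher and 0 lower (median 1.32), where 22.8% of all 734 genes were higher and 28.3% lower. Fibronectin, *Fn1*, changed most (log2 difference 2.33, SE 0.27, adjusted *P* value 3.77e-06), followed by *Pros1*. The chains of C1q, the complement protein that binds dying cells, rose by 2.01 (*C1qa*), 1.96 (*C1qc*) and 1.91 (*C1qb*). The complement genes *C4a* and *C3* rose by 1.41 (from low counts) and 1.22. *Apoe*, a lipid carrier, rose by 1.10, *Anxa1*, which encodes annexin A1, by 0.99, and *Calr*, an eat-me signal, by 0.58. *Lgals3*, which encodes galectin-3, was called at 0.46 (adjusted *P* value 0.0405) with overlapping values. It lost that call without CTLA4-Ig replicate 2 (0.49), 3 (0.42) or 4 (0.39), without CTLA4-Ig/EPO replicate 1 (0.45), 2 (0.36) or 4 (0.41), after centring (0.26), after quantile normalization (0.20), in the fit of the 2 groups compared (adjusted *P* value 0.0638) and with trended and robust moderation (0.056). *Ptx3* was at 0.60 (adjusted *P* value 0.179).

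Of the genes of engulfment and signalling, 1 of 6 was higher and 3 lower with EPO (median -0.20), where 22.8% of all 734 genes were higher and 28.3% lower. A difference between these lists was not tested. The adaptor gene *Tyrobp* rose by 0.35, a call lost after centring (0.15) and without CTLA4-Ig replicate 4 (0.29). *Syk* was not called by the deposited values (-0.20, adjusted *P* value 0.147) but was called lower after centring (-0.40, adjusted *P* value 0.00937). *Socs1* and *Socs3*, inhibitors of cytokine signalling, were lower (-0.54 and -0.44), as was *Vav1*, a guanine nucleotide exchange factor (-0.20), and with counts scaled by totals 0 of the 3 were called. Without a single mouse, *Socs3* was not called in 5 of 8 fits, those without CTLA4-Ig replicate 2 (-0.39) or 4 (-0.36) or CTLA4-Ig/EPO replicate 1 (-0.41), 3 (-0.37) or 4 (-0.43). *Vav1* was not called in 3, those without CTLA4-Ig replicate 2 (-0.18) or CTLA4-Ig/EPO replicate 3 (-0.19) or 4 (-0.18), nor after quantile normalization (-0.14) or in the fit of the 2 groups compared (adjusted *P* value 0.0808).

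Among find-me and do-not-eat-me genes, 3 of 6 were higher and 1 lower with EPO (median 0.52), beside 22.8% higher and 28.3% lower among all 734 genes. *Sphk1*, which makes the find-me lipid sphingosine-1-phosphate, rose by 1.82 from low counts, *Sirpa*, the receptor for the do-not-eat-me signal CD47, by 1.47, and the fractalkine receptor gene *Cx3cr1* by 0.57, while *S1pr1*, a sphingosine-1-phosphate receptor gene, fell by 1.93. Of the nuclear receptors and cargo handling genes, 7 of 9 were higher and 1 lower (median 1.25), beside the same shares. *Nr1h3*, which encodes the oxysterol receptor LXRα, rose by 2.09, *Pparg*, a lipid-activated nuclear receptor, by 2.02, and *Ctsl*, which encodes the lysosomal protease cathepsin L, by 1.46. *Klf4* was lower (-0.92). *Tgfb1* (0.28) was the smallest called rise of that list and lost its call after centring (0.07), in the fit of the 2 groups compared (adjusted *P* value 0.0643), and without CTLA4-Ig replicate 1 (0.24), 2 (0.27) or 4 (0.24) or CTLA4-Ig/EPO replicate 3 (0.23) or 4 (0.27).

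**Figure D4:**
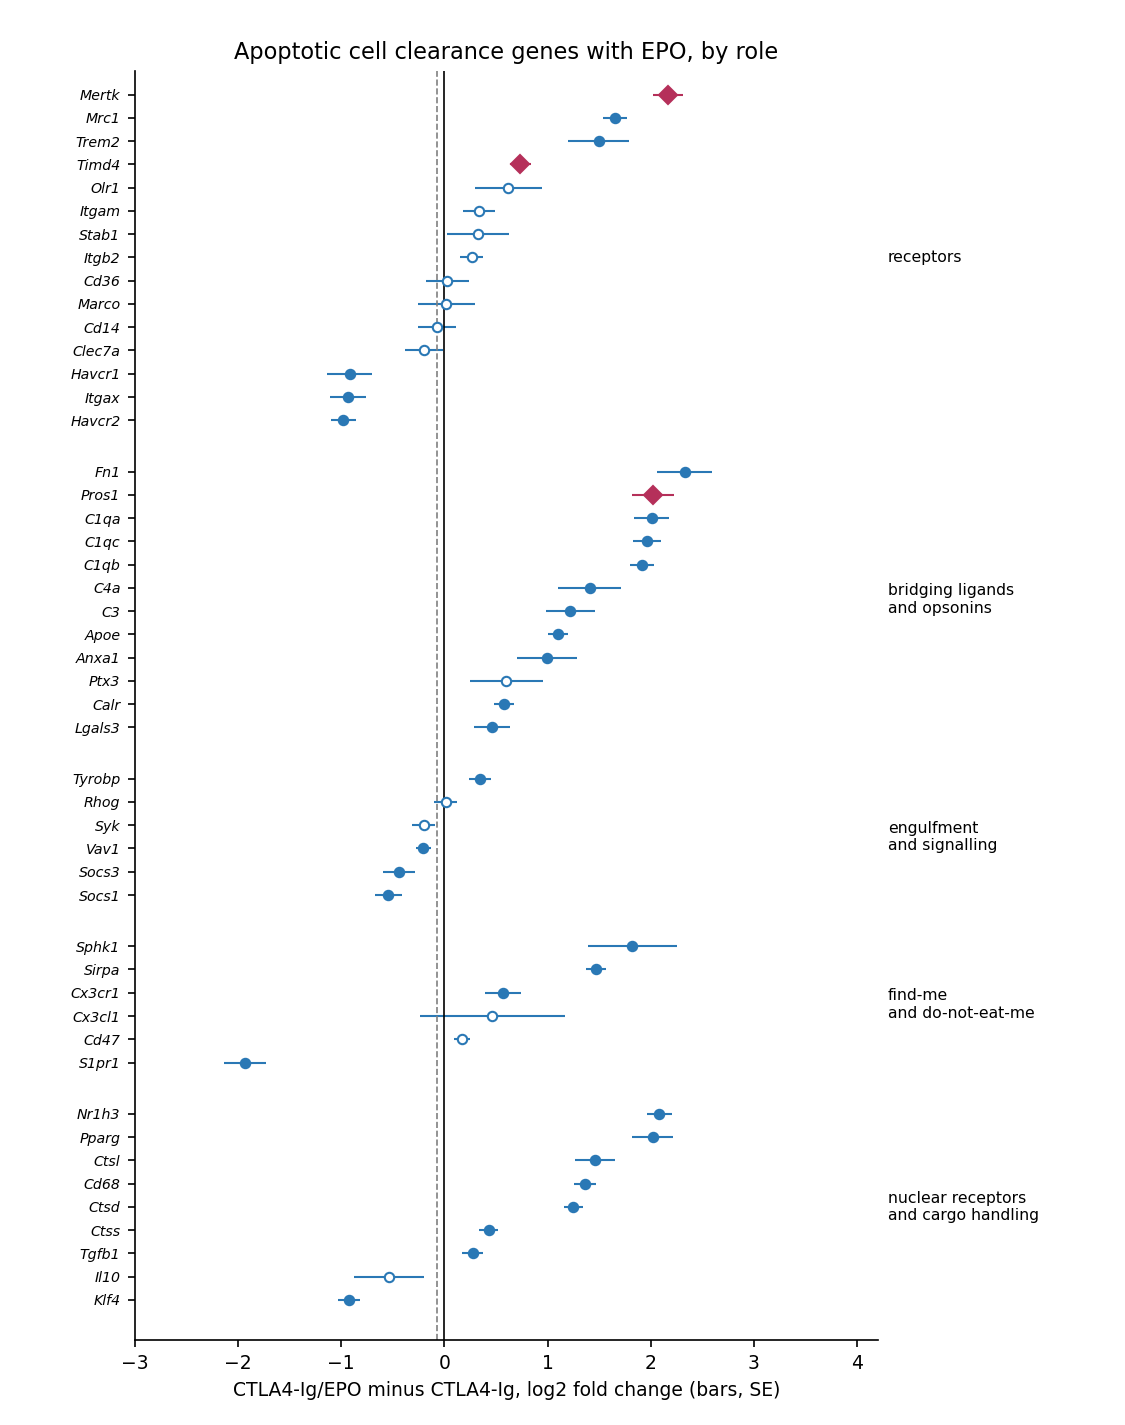
Log2 difference between CTLA4-Ig/EPO and CTLA4-Ig (x axis, with SE bars from limma, 4 mice in each group) for the 48 clearance genes in the table, grouped by role, with filled symbols for an adjusted *P* value below 0.05, diamonds for *Mertk*, *Pros1* and *Timd4*, and a dashed line at the median of all 734 genes (-0.07). By the deposited values, bridging ligands and opsonins lie to the right (median 1.32, 11 of 12 called higher, *Pros1* included). Receptors lie on both sides (4 higher, *Mertk* and *Timd4* included, and 3 lower) and engulfment genes near 0 (median -0.20).

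With BALB/c cells only, 5 of the 48 clearance genes were higher and 31 lower than in naive mice by the deposited values (median -0.85, beside -0.65 over all genes, of which 11.9% were higher and 58.4% lower), but 14 and 19 after centring, 15 and 19 after quantile normalization, and 20 and 13 with counts scaled by totals. Of all 734 genes, 242 were higher and 196 lower after centring, 251 and 192 after quantile normalization, and 339 and 137 with counts scaled by totals. The C1q genes, which moved with *Pros1* in the EPO step, did not fall with it here, with deposited differences of 0.08 (*C1qa*), 0.03 (*C1qb*) and 0.07 (*C1qc*), none called, and a higher level under other scalings. *C1qa*, for example, went from 2.55 to 3.36 relative to the median gene, and from 80.7 to 181 counts per 100000. Of the 12 bridging ligands and opsonins, 0 were higher and 8 lower by the deposited values, a share near that of all genes, but 3 and 5 after centring, 4 and 5 after quantile normalization, and 5 and 5 with counts scaled by totals. *Fn1* (-3.73), *Anxa1* (-3.47) and *C3* (-3.09) fell by amounts well beyond the shift of the median gene, as *Pros1* did. Adding CTLA4-Ig changed 0 of the 48 in limma, where 70 of all 734 genes had an unadjusted *P* value below 0.05. *Axl*, *Tyro3*, *Gas6* and *Mfge8*, other receptors and ligands of this pathway, were not analysed here.

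Macrophage markers moved with the 3 genes in the EPO step. There, 4 of 4 in the table (of 5 listed) were higher under each scaling, where 22.8% of all 734 genes were higher by the deposited values, with a median of 1.32, *Fcgr1* at 2.65, *Cd68* at 1.36, *Adgre1* at 1.27 and *Csf1r* at 1.16. Their summed linear values, led by *Csf1r*, were 6938, 7203, 5957 and 6990 in naive mice and 3217, 2903, 3117 and 3493 with BALB/c cells only. They were 3006, 3187, 3368 and 2918 with CTLA4-Ig and 6688, 7132, 8897 and 8381 with CTLA4-Ig/EPO. The sum was high in naive mice and in mice with EPO and low in the other 8 by the deposited values, although the median marker difference between BALB/c cells only and naive mice, -1.13, shrank to -0.04 with counts scaled by totals. None of the 4 was at the lowest count in any mouse. With BALB/c cells only, 4 of the 4 were lower by the deposited values, where 58.4% of all genes were, and 2 of 4 relative to the median gene, where 196 of 734 were, while *Timd4* was higher.

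Markers of red pulp macrophages, the resident cells that take up aged red cells, were represented by 3 of 8 genes, and 3 of 3 were higher with EPO under each scaling (22.8% of all genes were higher by the deposited values), namely *Vcam1* (1.72), *Cd163* (1.67) and *Mrc1* (1.65). Their sum, led by *Vcam1*, was 3267, 3104, 2992 and 4105 in naive mice, 5090, 4410, 4340 and 5170 with BALB/c cells only, 3988, 4180, 4157 and 3781 with CTLA4-Ig, and 12649, 11877, 15394 and 12718 with CTLA4-Ig/EPO. Mice with EPO were far above the others, and naive mice lay below BALB/c cells only and overlapped CTLA4-Ig by the deposited values. The median difference of the red pulp markers between BALB/c cells only and naive mice was 0.56 by the deposited values. It was 1.30 after centring, 1.28 after quantile normalization and 1.65 with counts scaled by totals. As counts per 100000, *Vcam1* was 221 ± 58.7 in naive mice and 573 ± 15.4 with CTLA4-Ig. Of the marginal zone macrophage markers, 2 of 3 in the table (of 6 listed) were higher with EPO, *Siglec1* (2.49) and *Nr1h3* (2.09), while *Marco* was at 0.02. Their sum, led by *Nr1h3*, was 419, 329, 349 and 477 in naive mice, 307, 269, 272 and 291 after the cells alone, 409, 394, 308 and 352 with CTLA4-Ig, and 776, 862, 892 and 912 with CTLA4-Ig/EPO. The median difference of these markers between BALB/c cells only and naive mice was -0.42 by the deposited values, but 0.32 after centring and 0.67 with counts scaled by totals. No gene of either list was at the lowest count in any mouse. *Cd68* of the macrophage list, *Mrc1* of the red pulp list, and *Nr1h3* and *Marco* of the marginal zone list are also on the clearance lists. *Itgam* and *Itgax* are likewise shared with the classical monocyte and dendritic cell lists. Marker and clearance lists are thus not separate sets of genes. The part of the macrophage, red pulp and marginal zone markers in the changes of *Mertk*, *Pros1* and *Timd4* was not tested.

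As a description with no test, each gene was set against the mean log2 value of the 4 macrophage markers in the same mouse. *Mertk* relative to these markers was -2.74 in naive mice, -1.84 with BALB/c cells only, -1.99 with CTLA4-Ig and -1.44 with CTLA4-Ig/EPO. It ranged from -2.22 to -1.84 with CTLA4-Ig and from -1.54 to -1.23 with EPO, so it rose by more than the mean of the markers and without overlap, although *Fcgr1* itself rose by more. *Pros1* was at -3.55, -5.12, -4.73 and -4.32, and here the mice with CTLA4-Ig (-4.97 to -4.49) overlapped those with EPO (-4.80 to -3.97). *Timd4* was at -4.06, -1.88, -1.93 and -2.81, and with EPO (-2.97 to -2.68) it was below CTLA4-Ig (-2.05 to -1.71), since it rose by less than the mean of the markers. Against the 3 red pulp markers, the means with CTLA4-Ig and with EPO were -2.78 and -2.29 for *Mertk*, -5.51 and -5.17 for *Pros1*, and -2.72 and -3.66 for *Timd4*.

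**Figure D5:**
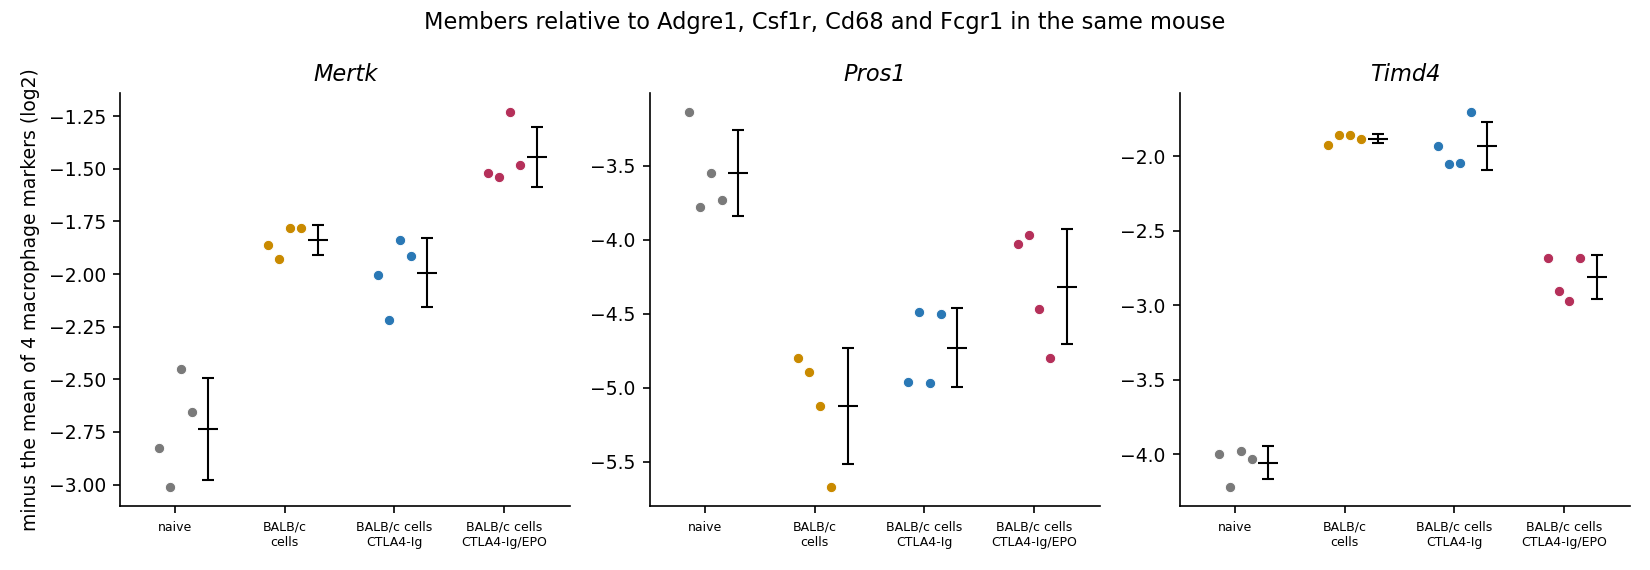
Log2 value of *Mertk*, *Pros1* and *Timd4* minus the mean log2 value of 4 macrophage markers (*Adgre1*, *Csf1r*, *Cd68* and *Fcgr1*) in the same mouse, with 1 point per mouse by treatment group (4 mice each) and the mean and SD beside the points. From CTLA4-Ig to CTLA4-Ig/EPO, *Mertk* moves up (-1.99 to -1.44), *Pros1* overlaps (-4.73 to -4.32) and *Timd4* moves down (-1.93 to -2.81).

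Markers of other cells in the samples moved as well, and their counts with EPO stand beside 22.8% higher and 28.3% lower among all 734 genes. Neutrophil markers, led by *S100a9*, were lower in 10 of 10 with BALB/c cells only under each scaling (median -4.40, where 58.4% of all genes were lower by the deposited values), with sums of 770551, 332421, 263707 and 352386 in naive mice and 36646, 14521, 21508 and 13227 after the cells. With EPO, 4 of the 10 were higher and 1 lower, with sums of 25235, 23997, 14964 and 15902 with CTLA4-Ig and 38021, 87015, 48253 and 58854 with CTLA4-Ig/EPO. Eosinophil markers, led by *Prg2*, were higher in 3 of 5 and lower in 1 with EPO, with sums of 361, 311, 322 and 273 with CTLA4-Ig and 2284, 3194, 2811 and 2672 with CTLA4-Ig/EPO. Granulocyte progenitor markers, led by *Mpo*, were higher in 3 of 5 and lower in 1, with sums of 605, 465, 472 and 376 that became 1818, 2811, 2197 and 2689. Proliferation genes, led by *Top2a*, were higher in 3 of 3. Of 8 listed erythroid markers only *Gata1* was in the table, higher by 2.23, so a rise of erythroid cells is not read from it. Of the classical monocyte markers, led by *Chil3*, 2 of 5 were higher and 1 lower, and of the platelet markers, led by *Selp*, 1 of 2 was higher.

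Lymphoid markers were lower with EPO, where 28.3% of all 734 genes were lower and 22.8% higher. T cell markers, led by *Cd28*, were lower in 3 of 3 (median -1.97), with sums of 1041, 1090, 985 and 1057 with CTLA4-Ig and 401, 336, 277 and 302 with CTLA4-Ig/EPO. B cell markers, led by *Ms4a1*, were lower in 2 of 2 and NK cell markers, led by *Gzma*, in 3 of 3, although only 1 of the latter was called with counts scaled by totals. Dendritic cell markers, led by *Ccr7*, were higher in 1 of 7 and lower in 3. With BALB/c cells only, beside 11.9% higher and 58.4% lower among all genes by the deposited values, B cell markers were higher in 2 of 2 (median 1.77) and T cell markers in 3 of 3 (1.33), under each scaling. Dendritic cell markers were higher in 4 of 7 and lower in 1 (6 and 0 with counts scaled by totals), and classical monocyte markers were lower in 5 of 5 (median -2.57), or 4 of 5 under the other scalings. Of these lists, the dendritic cell list alone held a gene at the lowest count, *Irf8* in naive replicate 1. The share of each cell type in the samples was not measured, and the part of these markers in the results was not tested.

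The genes most like each of the 3 across the 16 mice were named by Pearson's r of the log2 values, as descriptions over points that share samples, groups and scale factors. For *Mertk* these were *Serpinb6a* (r = 0.975), *Nr1h3* (0.971), *C1qb* (0.966), *Igf1* (0.966) and *Enpp2* (0.965). *Pros1* was most like *Fcgr3* (0.978), *Gata1* (0.973), *Calr* (0.971), *Tlr4* (0.969) and *Fpr1* (0.968). *Timd4* was most like *Socs2* (0.905), *Sema6d* (0.897), *Vcam1* (0.892), *Cd163* (0.889) and *Cd1d1* (0.876). These rankings depend on the scaling and on the mice used. After centring on medians the 5 genes for *Timd4* were *Lrp6* (0.956), *Cd1d1* (0.952), *Lag3* (0.948), *Sema6d* (0.946) and *Hist1h1c* (0.944). Over the 12 mice given BALB/c spleen cells, *C1qa* and *C1qb* were among the 5 genes for both *Mertk* and *Timd4*.

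Within groups, after each group's mean was subtracted, *Mertk* varied most closely with *Sirpa* (r = 0.892), *Ccr3* (0.889), *C1qa* (0.834), *Igf1* (0.823) and *Grn* (0.822) over the 16 mice. *Pros1* varied with *Ifit1bl2* (0.841), *Ccr1* (0.826), *Cstb* (0.797), *Acly* (0.795) and *Ccl7* (0.762). *Timd4* varied with *Tnfsf9* (0.687), *Hist2h2aa1* (0.678), *Sema4b* (0.662), *Serpinb6a* (0.632) and *Mcm5* (0.629). *Ifit1bl2*, *Ccl7* and *Tnfsf9* were low genes, with 7, 1 and 11 counts in their lowest mouse. Such r values, the highest among all genes and without a test, are not read as relations. *Mertk*, *Pros1* and *Timd4* themselves were less alike. Across the 16 mice r was 0.607 for *Pros1* and *Mertk*, 0.585 for *Timd4* and *Mertk*, and -0.224 for *Timd4* and *Pros1*. Over the 12 mice given BALB/c spleen cells, which leaves out the naive mice, r was 0.910, 0.958 and 0.840, over points of which the 4 mice with EPO are the highest in each gene. Around the group means r was -0.348, 0.457 and -0.223, from 4 mice per group and without a test, so no relation within groups is read from them.

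These results describe mRNA in 4 mice per group, in cells enriched for CD11b and read as mixtures. Protein, uptake of apoptotic cells and the share of each cell type were not analysed here. The rises of *Mertk*, *Pros1* and *Timd4* from CTLA4-Ig to CTLA4-Ig/EPO held under each scaling, while some smaller changes of other genes in that step did not, and comparisons with naive mice depend on a scale factor that differed between naive and other mice and on the sample names. EPO was given only together with CTLA4-Ig and BALB/c spleen cells, so its effect without them was not tested. With 4 against 4 mice, the exact tests cannot go below 0.0286, and *Pros1* was read from few molecules in the mice given cells without EPO.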

How the data were processed

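Log2 values of 734 genes in 16 mice were deposited by the authors, who had imported raw NanoString counts into limma and normalized them. In each mouse, 2 to the power of a value is a whole number times a single factor (100% of values to within 0.001, largest deviation 0.00038), so counts were recovered. What the factor was computed from, and any background subtraction, are not given in the sources used here. The lowest recovered count, 1, holds for 0.843% of values and may stand for 0. Totals were 562760 to 912328 per mouse. Gene symbols were matched to the RefSeq table of GRCm38.p6, with 724 current, 9 synonyms and 1 unmatched. Samples were grouped by name and treatment field. Replicates differed by more than sampling noise (chi-square per degree of freedom at least 5.22) and correlated across genes at r of 0.966 or more.

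Group means of all genes in all mice were modelled with limma 3.58.1 in R 4.3.3, without a filter, and 6 differences between groups were taken. Tests were two-sided with Benjamini-Hochberg adjustment over 734 genes and a threshold of 0.05, and the procedure was tested on simulated data. Intervals are limma's 95% intervals. Within-mouse differences were compared by exact permutation tests in scipy 1.17.1, adjusted over 9 tests. Alternatives were a fit to only the 2 groups of a comparison, robust moderation with a trend, centring on medians, quantile normalization, recovered counts scaled by totals (limma-voom), a filter on the lowest 25% of genes, unadjusted *P* values, the replicate number as a block, 0.5 added to counts, and leaving out each mouse. Equally numbered mice given CTLA4-Ig/EPO or CTLA4-Ig had related deviations from their group means over genes (r between 0.143 and 0.183). That rests on the values alone. As an alternative, the number was used as a block in a fit of all 4 groups and in sign flips, although the other pairs of groups did not pass this check.

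The members and the lists (5 of clearance genes, and markers of macrophages, red pulp and marginal zone macrophages, classical monocytes, neutrophils, granulocyte progenitors, eosinophils, dendritic, B, T and NK cells, platelets, erythroid cells and proliferation) were chosen with earlier results of these data known. Named genes are the 3 members, receptors and ligands called with EPO, the 3 largest changes each way in other clearance lists, the 5 genes most like each member, and the leading and defining markers. *Cd36*, *Marco*, *Ptx3*, *Tgfb1*, *Olr1*, *Itgb2*, *Syk*, *Itgam* as a receptor, and the clearance genes named with BALB/c cells only were named after their values were seen. Promoter sequences and motif searches used the RefSeq promoter table of GRCm38.p6. Other tools were Python 3.11.15, numpy 2.4.6, pandas 2.3.3 and matplotlib 3.10.9.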

Additional observations from a re-analysis of the deposited data

Results flagged for a closer look

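In 1 of 24 groups of 4 mice tested (log2 values of 3 genes and their 3 within-mouse differences, in 4 treatment groups), a single mouse stood apart from the other 3. *Pros1* was 7.33 in naive replicate 1 and 6.69 to 6.79 in the other naive mice, and the gap to the nearest mouse was 0.845 of the range of the group, above the critical value of Dixon's test for 4 values. Chance gives such a gap in about 1 of 20 groups. The factor applied to the counts of this mouse, 1.85, was the highest of all 16, and its 10 most abundant genes held 59.8% of its counts. In counts scaled by totals its *Pros1* level lay within the range of the naive mice. The cause was not tested.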

How the results depend on the processing

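The rises of *Mertk*, *Pros1* and *Timd4* with EPO kept their direction and their call under every alternative run, with log2 differences of 2.03 to 2.25, 1.95 to 2.15 and 0.66 to 0.81 when a mouse was left out. For differences from naive mice the scaling decided. *Mertk* with BALB/c cells only was 0.31 after centring on medians, 0.24 after quantile normalization and 0.67 with counts scaled by totals, and -0.50 to -0.37 when a mouse was left out. *Mertk* with CTLA4-Ig was 0.046, -0.0502 and 0.44 against naive mice under the same 3 scalings. *Pros1* with CTLA4-Ig/EPO was -0.052, -0.15 and 0.62, and -0.65 to -0.42 when a mouse was left out. Of the 48 clearance genes, those called with BALB/c cells only were 14 higher and 19 lower after centring, 15 and 19 after quantile normalization, and 20 and 13 with counts scaled by totals, which also called 5 lower with EPO. Among all 734 genes, the same 3 scalings called 242 higher and 196 lower, 251 and 192, and 339 and 137 with BALB/c cells only. Counts scaled by totals called 151 of all genes lower with EPO. The naive mice carry larger scale factors, and the cause was not tested.

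Other results without a call changed sign with EPO. *Cd36* was -0.18 after centring and -0.11 to 0.15 when a mouse was left out, *Marco* -0.19 and -0.18 to 0.24, and *Rhog* -0.19 after centring and after quantile normalization and -0.0016 to 0.0343. *Cd14* was 0.0364 with counts scaled by totals and -0.19 to 0.0113, *Cd47* was -0.0295 after centring, and *Cx3cl1*, with 1 count in its lowest mouse, ranged from -0.31 to 1.03. The change of *Pros1* minus *Mertk* with EPO ranged from -0.29 to 0.0135. With 3 against 4 mice, or sign flips over 4 pairs (smallest *P* value 0.125), the within-mouse differences cannot pass the threshold and were compared by value only. With the replicate number as a block, the rises with EPO had adjusted *P* values of 7.1e-08 (*Mertk*), 3.4e-06 (*Pros1*) and 9.52e-06 (*Timd4*). The block added a call for *Itgb2* (0.26, adjusted *P* value 0.0428) and changed no other call. *Itgb2* was also called with trended and robust moderation (adjusted *P* value 0.046), with the filter (0.0466) and with counts scaled by totals (0.0381). *Syk* was called lower after centring, and *Olr1* and *Itgam* higher with counts scaled by totals. Leaving out a mouse added calls for *Olr1*, *Itgam*, *Itgb2*, *Cd47* and *Il10*, in 1 of 8 fits each. Low counts limit *Pros1* among the 3 genes, and among other clearance genes *Ptx3*, *Cx3cl1*, *Sphk1*, *Havcr1*, *Stab1*, *Il10*, *Trem2*, *Olr1*, *Lgals3* and *C4a*, whose mean counts were lower still.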

Other observations

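*Irf8*, a transcription factor gene of dendritic cells and monocytes, had a recovered count of 1 in naive replicate 1 and a highest count of 632 among naive mice, so its naive mean of 7.53 carried an SD of 4.42 (log2, n = 4). Its values in the other 12 mice lay between 9.36 and 10.16. The same mouse had the highest *Pros1* value and the highest summed neutrophil markers of all 16.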
